A study of Drosophila melanogaster with 2 samples.

Results

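The 1103 thresholded peaks on the X chromosome of Drosophila melanogaster are described here, out of 7025 thresholded peaks in all. They were taken as every line of the thresholded list that lies on X, so that position and no measured value chose them. Their background is the 3812 candidate peaks on X, out of 5364 in the list for the pooled replicates, that overlap none of them. The arms 2L, 2R, 3L and 3R, with 1288, 1483, 1444 and 1669 thresholded peaks, stand beside X as the large autosome arms, 5884 peaks together.

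Chromatin immunoprecipitation and sequencing (ChIP-seq), which enriches the DNA bound by a chosen protein, was carried out on whole embryos of the strain CG34376-GFP, males and females pooled, at 0 to 24 h of age. The strain stably carries a fusion of CG34376 with green fluorescent protein at its C terminus, and the labels give no promoter for the transgene. The only group has 2 libraries, biological replicates 2 and 3 from 200 to 800 bp fragments, so nothing in the design sets one condition against another. A free-text line calls both libraries input, against their assay title and antibody field, and they were read as immunoprecipitates. The files hold peaks and no read counts, so the depth behind each value is unknown. Signal means the authors' enrichment value of a peak, whose scale is not stated, and rank means its place by signal in a list, with 1 the strongest.

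The fly X is a large, gene-rich chromosome. Females have a pair and males a single copy, and in males the MSL complex, which holds the acetyltransferase Mof and the noncoding RNAs roX1 and roX2, raises transcription along the X. The X also carries Sxl, the switch gene of sex determination, and the genes whose doses set that switch. Embryos of both sexes were pooled, so fewer X copies in the chromatin and weaker binding on X cannot be told apart in any comparison with the autosome arms.

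Sequence around 6 X summits is shown so that the sites behind the highest signals and the motifs tested further on can be seen. The windows reach 60 bases to each side of the summit, are cut short where a coding exon or UTR begins, and were read from the plus strand of dm6 (RefSeq, Release 6). The first 3 are the strongest peaks on X. For the window inside lncRNA Vinr, intron names the feature class, which does not tell introns from exons of a noncoding gene. The other 3 are the strongest further peaks whose window holds a GATA hexamer (GATAAG), a DRE (TATCGATA) and a CA repeat (CACACACA). Capitals mark every match, on either strand, to the 8 sets of letters searched, which were these 3, GAGAG and its longer form GAGAGAGA, the Motif 1 core GGTCACACT, the TATA box TATAAA, and a further hexamer, ACACTG.
Ugalt promoter, chrX:2703853-2703961, + strand: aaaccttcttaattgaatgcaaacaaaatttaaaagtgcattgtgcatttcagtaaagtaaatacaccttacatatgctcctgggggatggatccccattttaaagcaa
Gapdh2 promoter, chrX:15867922-15868042, + strand: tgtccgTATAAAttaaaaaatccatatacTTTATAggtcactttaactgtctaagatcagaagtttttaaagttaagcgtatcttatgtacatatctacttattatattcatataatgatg
lncRNA Vinr intron upstream of lncRNA CR44619, chrX:12751292-12751412, + strand: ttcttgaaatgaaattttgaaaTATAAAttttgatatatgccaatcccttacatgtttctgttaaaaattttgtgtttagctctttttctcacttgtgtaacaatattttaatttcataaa
elav promoter, chrX:523450-523570, + strand: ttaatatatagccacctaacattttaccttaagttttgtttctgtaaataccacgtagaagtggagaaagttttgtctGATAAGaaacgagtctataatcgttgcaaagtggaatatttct
RpS10b promoter, chrX:19597943-19598030, + strand: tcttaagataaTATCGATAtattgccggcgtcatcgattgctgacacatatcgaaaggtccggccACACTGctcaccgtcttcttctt
Tlk intron, chrX:3744688-3744808, + strand: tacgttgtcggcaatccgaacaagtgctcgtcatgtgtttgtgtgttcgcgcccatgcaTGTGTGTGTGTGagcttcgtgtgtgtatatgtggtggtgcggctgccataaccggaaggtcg

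In these 6 windows the Ugalt promoter held none of the letters searched, the Gapdh2 promoter held 2 TATAAA matches, and the elav promoter held 1 GATAAG. The RpS10b promoter held 1 DRE and 1 ACACTG. A match is a description of the letters only, and no match says nothing about which factors bind there.

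The strongest X peaks lay at Ugalt, Gapdh2, a noncoding RNA gene and Hex-A. The promoter peak of Ugalt (FBgn0024994), which encodes a transporter of UDP-galactose into the Golgi, covered 2703661 to 2704105. Its signal was 1686 in replicate 2 and 1472 in replicate 3, rank 2 in both, and 3150 in the pooled list. The promoter peak of Gapdh2 (FBgn0001092), an enzyme of glycolysis, covered 15867716 to 15868328. Its signal was 1558 in replicate 2 (rank 3) and 1247 in replicate 3 (rank 4), and 2799 in the pooled list. The summits lay 49 and 163 bp upstream of the starts of Ugalt and Gapdh2. The next strongest peak, from 12750789 to 12751711, lay inside lncRNA:Vinr, 515 bp upstream of a start of lncRNA:CR44619, with rank 6 in replicate 2 and rank 5 in replicate 3. The replicates therefore gave these 3 peaks nearly the same places. The peaks were picked by the signal of the pooled replicates, so high ranks in both follow largely from that choice.

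Hex-A (FBgn0001186), the hexokinase that starts glycolysis, had a promoter signal of 959 in replicate 2 and 767 in replicate 3, ranks 15 and 21. The summit lay 135 bp upstream of its start. The promoter of elav (FBgn0260400), an RNA-binding protein used as a marker of neurons, had a signal of 910 in replicate 2 and 718 in replicate 3, ranks 19 and 26. That summit lay 284 bp upstream of the start and also within 500 bp of a start of lncRNA:enrr. The promoter of Ptpmeg2, a tyrosine phosphatase, had ranks 24 and 27 in replicates 2 and 3, and the intron of Tlk, the Tousled-like kinase gene, ranks 23 and 29. An intronic summit of CG32772, 1297 bp downstream of its start, had ranks 20 and 23.

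The 25 strongest X peaks had pooled signals between 929 and 3150 and pooled ranks down to 159. Promoters held 17 of them, introns 8 and intergenic sequence 0, and 17 summits were upstream of their nearest start. Over all X peaks promoters held 57.7%, introns 32.6% and intergenic sequence 5.89%. Of the 17 promoter summits 14 were upstream, where 59.4% of all X promoter summits were. With 25 peaks these counts were not tested. All 25 were overlapped by the 7025 highest candidates of both replicates, the lowest rank being 231 in replicate 2 and 211 in replicate 3. Those with the wider spread between replicates were the promoter of IntS6, with ranks 90 in replicate 2 and 211 in replicate 3, the promoter of MFS10, a transporter of the major facilitator family, with ranks 53 in replicate 2 and 145 in replicate 3, the intron of CG9921 with ranks 67 and 181, and the promoter of asRNA:CR44429, inside gce, with ranks 231 and 99. Replicate 2 gave the higher place to 14 of the 25 and tied for 1, so the spread had no common direction.

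Regulators of transcription stood at several of these sites. They were Atf3, a bZIP factor (pooled signal 1189, ranks 65 and 66 in replicates 2 and 3), bbx, an HMG-box gene (1203, ranks 58 and 65), ph-p, a Polycomb group gene (1062, ranks 71 and 105), and NFAT (940, intron, ranks 190 and 123). IntS6, a subunit of the Integrator complex, had a promoter signal of 929. Genes of the nervous system were moody, which encodes a receptor of the glial blood-brain barrier (promoter, 1045, ranks 154 and 77), and norpA, the phospholipase C of phototransduction (intron, 1148, ranks 81 and 69). The protein synthesis and secretion genes were RpS10b, a ribosomal protein (1083, ranks 119 and 82), and TRAM, a membrane protein of the translocon (1067, ranks 106 and 101). The remaining peaks lay nearest to CG3726 (intron), CG3009, CG15771, lncRNA:CR43287 (in an intron of CHES-1-like) and snoRNA:Psi28S-3342, with pooled signals between 935 and 1416. An intronic peak may act on another gene than that of its nearest start.

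**Figure D1:**
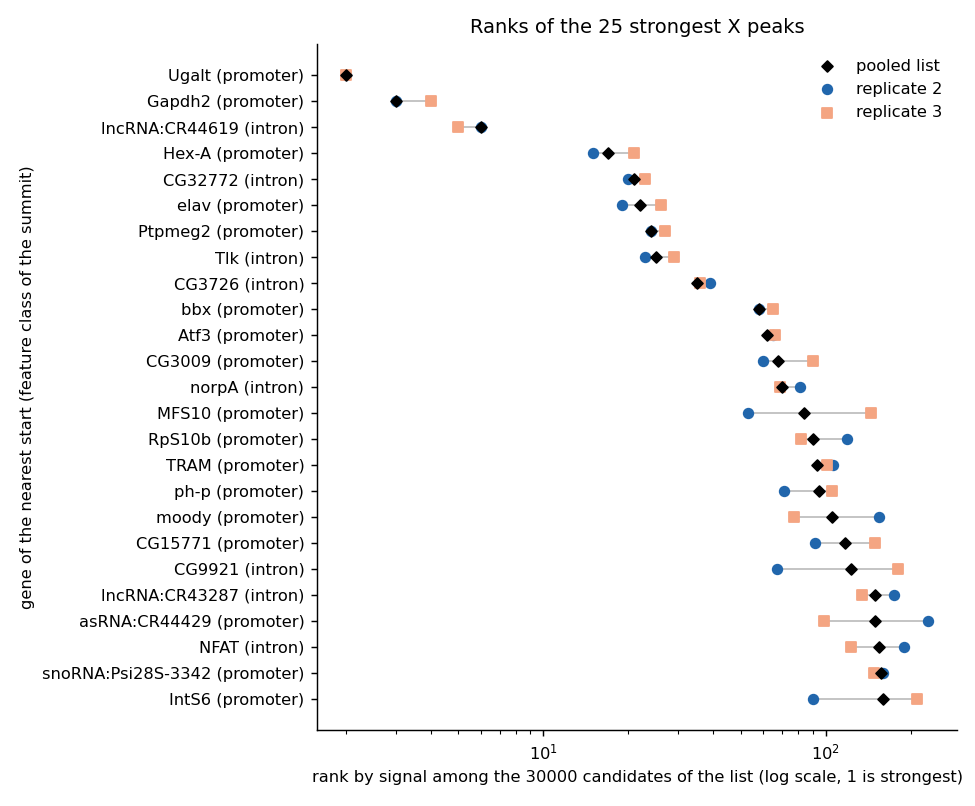
Ranks of the 25 strongest X peaks in the pooled list, replicate 2 and replicate 3, on a log axis with 1 the strongest, by gene of the nearest start and feature class. Ugalt had rank 2 in both replicates, and no rank number of the set exceeded 231.

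At the lower end the choice of the authors' threshold fixed membership. The weakest members were et (163.6), kat80 (163.3), Acat1 (163.3), CG14207 (163.2) and Cyp6v1 (163.1), with none of them among the highest 7025 candidates of both replicates. Just outside lay AANATL7 and bi, with 162.8 each, and then Unc-76, Ctr1A and C3G, with 162.6, 162.4 and 162.3.

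A smaller share of candidates was thresholded on X than on the autosome arms. X held 1103 thresholded of 5364 candidates (20.6%, 95% Wilson interval 19.5 to 21.7), and 2L, 2R, 3L and 3R together 5884 of 24423 (24.1%, 23.6 to 24.6), where 23.4% of all candidates were thresholded. The odds ratio was 0.816 (0.759 to 0.877, Fisher's exact test, two-sided, adjusted p = 7.55e-08). Counting the 7025 highest candidates of a replicate instead gave 20.6% on X in replicate 2 and 21.1% in replicate 3, and 24.1% and 23.9% on the arms in replicates 2 and 3. X lay below the lowest single arm, 3L with 23.4%. The same lists had shown this shortfall of X before, so it is given as the base of what follows. These p-values are over peaks or genes, whose neighbours are not independent, and not over replicates.

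Candidates themselves were not sparser on X. X had 228 candidates and 46.9 thresholded peaks per Mb, and the arms together 224 candidates and 54.0 thresholded peaks per Mb. The single arms had 219 to 229.5 candidates per Mb. Per 100 annotated starts, X had 29.0 thresholded peaks and the arms 30.7. On this measure 2L lay below X, with 28.6, and the other single arms had 31.0 to 32.2. The median signal of thresholded peaks was 239 on X and 255 on the arms, with 252 to 259 on the single arms. The median signal of background candidates was 63.4 on X and 63.0 on the arms. The medians thus differed among thresholded peaks and were nearly equal among background candidates, and neither difference was tested.

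Fewer protein-coding genes were bound on X. On X 596 of 2196 (27.1%, 95% interval 25.3 to 29.0) were bound, meaning that a thresholded summit lay no more than 500 bp from any of their starts, and on the arms 3571 of 11669 (30.6%, 29.8 to 31.4), where 30.1% of all protein-coding genes were bound. The odds ratio was 0.845 (0.763 to 0.935, Fisher's exact test, adjusted p = 0.00174). The separate replicates gave 26.9% ± 0.805 on X and 29.9% ± 0.970 on the arms (SD, n = 2). A candidate lay at the start of 63.8% of X genes and 59.7% of autosomal genes. Among genes with a candidate, 42.5% were bound on X (39.9 to 45.1) and 51.2% on the arms (50.1 to 52.4). More X genes thus had a candidate, and fewer of these were thresholded. For protein-coding genes the share was 28.7% on 2L (27.0 to 30.5), an interval that overlaps that of X. It was 30.9% to 31.3% on the other single arms. Over all annotated genes 652 of 2704 X genes (24.1%) were bound, where 26.1% of all genes were. By that count X was not the lowest arm, since 2L had 23.5%, and the other arms 26.1% to 28.1%.

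The share of X varied over the ranks. X held 17 of the 100 strongest peaks (17.0%, Wilson interval 10.9 to 25.5), 50 of ranks 101 to 500 (12.5%, 9.61 to 16.1) and 76 of ranks 501 to 1000 (15.2%). It held 120 of ranks 1001 to 2000 (12%, 10.1 to 14.2), 312 of ranks 2001 to 4000 (15.6%) and 528 of ranks 4001 to 7025 (17.5%, 16.1 to 18.8). Its share of the whole list was 15.7%. Both replicates showed the low step at ranks 1001 to 2000, with 12.8% each, and the rise after it, with 17.3% in replicate 2 and 17.2% in replicate 3. X was at or above its share at the very top and at the weak end, and below it between; the steps were not tested.

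Promoters made up a smaller and introns a larger share of X peaks. Of the X peaks, 636 (57.7%, 54.7 to 60.5) were promoter peaks, with a start no more than 500 bp away, against 3643 (61.9%, 60.7 to 63.1) on the arms (odds ratio 0.838, 0.735 to 0.955, Fisher's exact test, adjusted p = 0.0258). Introns held 360 (32.6%, 29.9 to 35.5) on X and 1682 (28.6%, 27.4 to 29.8) on the arms (odds ratio 1.21, 1.05 to 1.39, adjusted p = 0.0258 by the same exact test). The class introns includes exons of noncoding genes. Among background candidates introns held 47.7% on X and 44.7% on the arms, so introns were the larger class on X there too. Promoters held 32.5% of background candidates on X and 32.3% on the arms. These background shares were not tested. The separate replicates gave promoter shares of 57.6% ± 0.785 on X and 61.5% ± 0.830 on the arms, and intron shares of 32.9% ± 0.561 on X and 28.8% ± 0.986 on the arms (SD, n = 2). X had the lowest promoter share and the highest intron share of the large arms. Next to it stood 3L, with 59.7% at promoters (57.1 to 62.2) and 29.4% in introns (27.1 to 31.8). Close to 3L was 2L, with 59.9% (57.2 to 62.5) and 29.3% (26.9 to 31.9). The intervals of 3L and 2L overlap those of X in both classes. At promoters 2R and 3R had 64.0% and 63.6%, with intervals above that of X. Among the 3512 peaks with the higher signal neither call held, with an odds ratio of 0.802 for promoters and 1.28 for introns (adjusted p = 0.0814 each, Fisher's exact test).

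The rarer classes did not pass the threshold. Intergenic sequence held 65 X peaks (5.89%) and 396 on the arms (6.73%), odds ratio 0.868 (0.662 to 1.14, Fisher's exact test, adjusted p = 0.483). 3' UTRs held 27 on X (2.45%) and 88 on the arms (1.496%), odds ratio 1.65 (1.07 to 2.56, Fisher's exact test, adjusted p = 0.0558). Replicate 2 on its own passed (adjusted p = 0.0452, Fisher's exact test). 5' UTRs beyond 500 bp from a start held 11 X peaks and coding exons 4.

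Set against the candidates of the same class, the gap between X and the arms was widest at promoters among the larger classes. Of promoter candidates, 29.7% (Wilson interval 27.8 to 31.7) were thresholded on X and 35.4% (34.5 to 36.3) on the arms, an odds ratio of 0.771 (0.697 to 0.853). For intron candidates the shares were 15.5% on X and 17.5% on the arms (odds ratio 0.862, 0.761 to 0.975), and for intergenic candidates 12.7% on X and 13.1% on the arms (0.964, 0.728 to 1.28). The single autosome arms ran between 34.2% and 36.3% at promoters, all above X. These 3 odds ratios are given with no test, and whether they differ from one another was not tested.

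**Figure D2:**
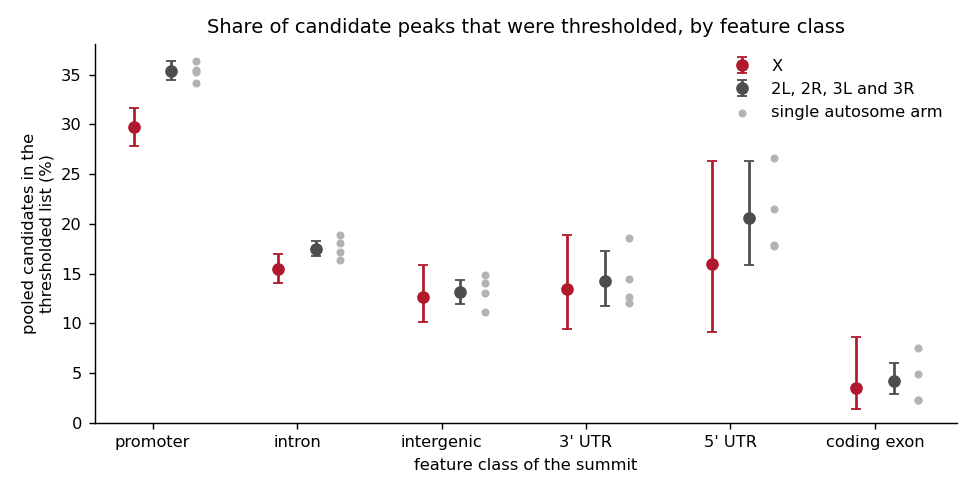
Share of pooled candidates that were thresholded, by feature class of the summit, for X, for the large autosome arms together (bars, 95% Wilson intervals) and for each arm alone (small points). Promoter candidates were thresholded at 29.7% on X and 35.4% on the arms, while the intervals of intergenic, UTR and coding-exon candidates overlap widely.

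Within promoters the X summits sat in nearly the same place as others. Their median position was 34 bp upstream of the nearest start on X and 37 bp upstream on the arms, and 59.4% lay upstream on X and 61.8% on the arms. On X 48.3% were within 100 bp of the start, against 52.4% on the arms. Starts of more than 1 gene lay within 500 bp at 169 X promoter peaks (26.6%) and at 31.0% of those on the arms. Of the X promoter peaks, 603 were nearest to a protein-coding gene, 31 to a noncoding RNA gene, 1 to a snoRNA gene and 1 to a pseudogene. Summits over 2000 bp from any start numbered 222 on X (20.1%) and 1006 on the arms (17.1%), with 3L slightly higher than X at 20.7%. None of these values was tested.

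Replicates overlapped slightly less on X. Of the X peaks, 890 (80.7%, Wilson interval 78.3 to 82.9) were overlapped by the 7025 highest candidates of both replicates, against 4975 (84.6%, 83.6 to 85.5) on the arms, where 83.9% of all thresholded peaks were. The odds ratio was 0.763 (0.647 to 0.901, Fisher's exact test, adjusted p = 0.00174). A further 112 X peaks were found in replicate 2 only, 98 in replicate 3 only and 3 in neither. The median pooled signal was 264 for X peaks in both replicates and 178 for those in 1. The thresholded list was itself made from the agreement of these replicates, so the height of these shares is no test of their quality.

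The gap was widest among the weakest peaks. With the thresholded list cut by signal into 4 equal parts, the shares found in both replicates were 100% on X and 99.9% on the arms in the strongest part, and 98.9% on X and 99.4% on the arms in the next. In the part after that they were 90.9% on X and 91.6% on the arms, and in the weakest 38.4% on X and 46.4% on the arms. X took 13.1%, 14.9%, 18.1% and 16.7% of the 4 parts, strongest first. Among the 3512 peaks with the higher signal, matched against as many candidates of each replicate, the odds ratio was 0.899 and did not pass (adjusted p = 0.410, Fisher's exact test). The signals of replicates 2 and 3 had a Spearman correlation of 0.647 over the 1099 X peaks with a candidate in each, and on the single arms it ran between 0.683 and 0.726. Peaks on an arm share the libraries and the control, so this is a description. Replicate 2 gave 1.16 times the signal of replicate 3 in the median on X and 1.15 times on the arms, so the replicates' ratio was nearly the same on X.

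**Figure D3:**
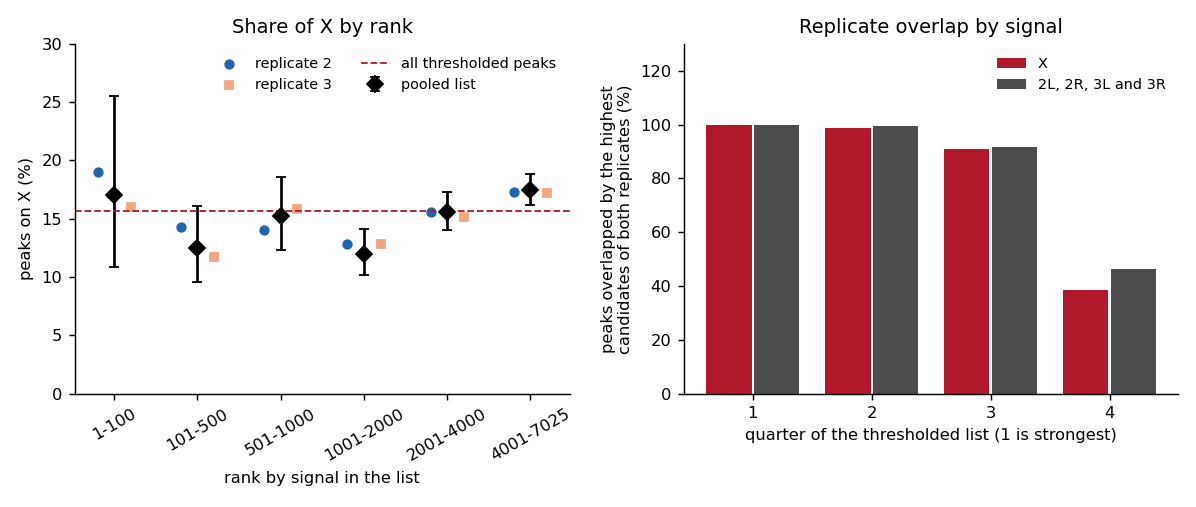
Left, share of peaks on X by step of rank in the pooled list (diamonds, 95% Wilson intervals) and in replicates 2 and 3 (points), with the share over all thresholded peaks dashed. Right, share of thresholded peaks overlapped by the highest candidates of both replicates, for X and the autosome arms in 4 equal parts of the list by signal, where the weakest part held 38.4% on X and 46.4% on the arms.

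Peaks were uneven along X. In 12 bins of 2 Mb from the left end of the assembly, the last one shorter, the bin from 6 to 8 Mb was densest, with 143 peaks (71.5 per Mb), and both replicates put most there, with 144 and 148 of their highest candidates. The bins from 2 to 4 Mb and from 12 to 14 Mb had 127 peaks each. The bin from 4 to 6 Mb had only 66, between dense neighbours, though it had 174 protein-coding genes, against 181 in the bin before it. In that bin 20.7% of protein-coding genes were bound, against 30.9% from 2 to 4 Mb and 37.5% from 6 to 8 Mb. From 20 to 22 Mb there were 41 peaks, and in the remaining 22 to 23.5 Mb 6, where 5 of 59 protein-coding genes were bound (8.47%). The share of promoters among peaks ran from 42.5% in the bin from 12 to 14 Mb to 69.1% from 14 to 16 Mb, while the median signal stayed between 226 and 260 in every bin.

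**Figure D4:**
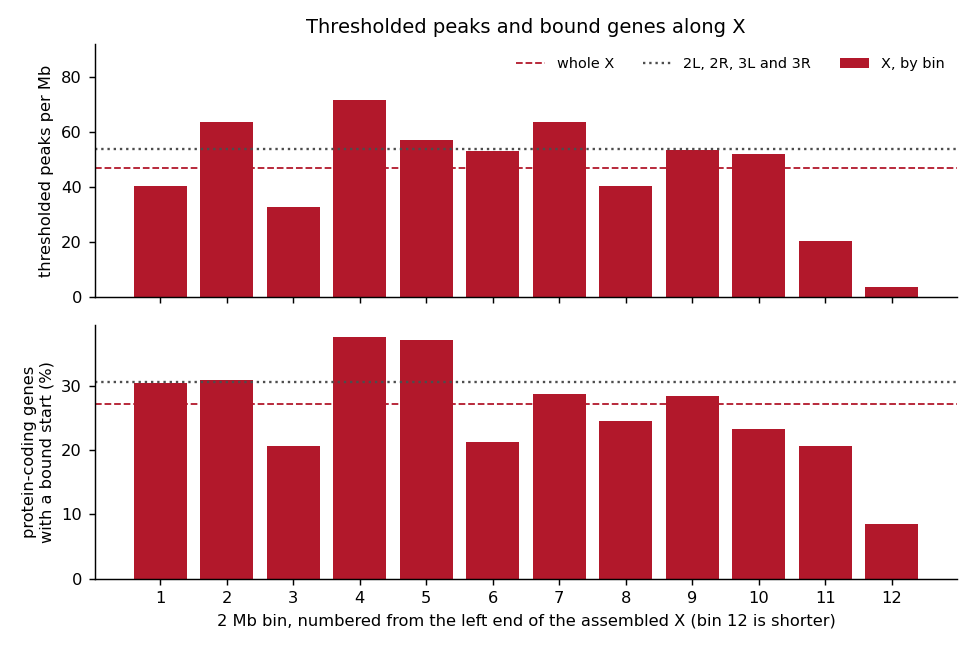
Thresholded peaks per Mb (top) and share of protein-coding genes with a bound start (bottom) in 2 Mb bins along X, with the value of the whole X dashed and of the autosome arms dotted. Bins 2, 4, 5 and 7 stand above the arms in peaks per Mb, and bins 11 and 12 have 41 and 6 peaks.

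The widest stretch of X without a thresholded summit ran 1075 kb from 21374001 to 22449291, and held 39 protein-coding genes and 21 candidates. The next ran 514 kb from 22491526 to 23005105, with 15 protein-coding genes, among them fog, a secreted signal of gastrulation, and 13 candidates. Both lie at the centromere end of the assembly. The stretch after these in length, 479 kb from 14238214 to 14717487, lies far from there and held 23 protein-coding genes and 45 candidates, among them NetA, a netrin guidance cue, mud, a spindle protein, and the testis genes betaNACtes2, betaNACtes3, betaNACtes4 and betaNACtes6. Candidate density in it was 93.9 per Mb, against 228 over the whole X, so candidates were thin there too. The median gap between neighbouring summits was 4.90 kb on X, and 3.84 to 4.57 kb on the arms. The widest stretch on 2R, 1147 kb, was longer than that of X. Those of 2L, 3L and 3R were 600, 349 and 360 kb.

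Some X genes held many summits. Tlk, counted with 500 bp on each side over its 69.8 kb, held 15, of which replicate 2 gave 14 and replicate 3 gave 13 among their highest candidates. CHES-1-like, a forkhead gene, held 12 in 27.0 kb. There were 10 each in CG14434 (15.3 kb), CG1677 (125 kb), NFAT, Raf, the kinase of receptor tyrosine kinase signalling, and Tis11, an RNA-decay factor, and 11 in lncRNA:CR44357, which contains CG1677. The cAMP phosphodiesterase gene dnc held 8 in 167 kb, and CrebB, which encodes a cAMP-responsive bZIP factor, 7 in 11.5 kb. Per 10 kb, Abcd3, with 6 summits in 8.51 kb, had 7.05 and dnc 0.478, so many summits did not mean a dense gene. CG1677 and lncRNA:CR44357 share summits.

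Genes of dosage compensation and sex determination were read from a list of 9 X genes, of which 2 were bound (22.2%, Wilson interval 6.32 to 54.7), against 27.1% of X protein-coding genes. Sxl (FBgn0264270) had a promoter signal of 262 in replicate 2 and 220 in replicate 3, ranks 874 and 908, and 490 in the pooled list, with 3 summits in the gene. roX1 had 86.0 in replicate 2 and 82.0 in replicate 3, ranks 7328 and 6566, and 166 in the pooled list at rank 6810, close to the threshold, and counted as bound in replicate 3 only. roX2 had a candidate of 124 at its start and a thresholded summit of 248 within 500 bp of its bounds. mof, the acetyltransferase gene, had a candidate of 124, and snf, a splicing factor gene of the Sxl pathway, one of 69.1. The X-linked signal genes sisA, run, sc and upd1 had no candidate within 500 bp of a start.

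Genes of carbohydrate and central metabolism were bound at 7 of 9 (77.8%, 45.3 to 93.7), where 27.1% of all X protein-coding genes were, and at 6 in replicate 2 and 7 in replicate 3. Besides Ugalt, Gapdh2 and Hex-A these were Pfrx, which makes the sugar bisphosphate regulator of glycolysis (497), kdn, citrate synthase (250), and Pgd and Zw, dehydrogenases of the pentose phosphate pathway (224 and 223). kdn had a signal of 86.5 in replicate 2, rank 7266, and 156 in replicate 3, rank 2037. Pdha and Idh3a, subunits of mitochondrial dehydrogenases, had only candidates at their starts, of 123 and 54.5. Pdha also had a thresholded summit of 275 within 500 bp of its bounds. This list was chosen with earlier results of these data known. It holds Ugalt, Gapdh2 and Hex-A, whose peaks are among the 4 strongest on X. The share of 7 of 9 is therefore a description of the list and was not tested.

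Of all protein-coding genes, 27.1% were bound on X and 30.6% on the arms. Genes of the cytosolic ribosome were bound at 14 of 14 on X (78.5 to 100) and at 65 of 77 on the arms (84.4%), in both replicates alike on X. The 3 strongest by pooled signal, RpS10b, RpS28b and RpS19a, had signals of 556, 472 and 407 in replicate 2 and 522, 441 and 341 in replicate 3. The weakest by pooled signal (297), RpL37-1, had 129 in replicate 2 and 181 in replicate 3. In replicate 3 RpL35 was weaker, with 147. RpS14a and RpS14b, which are near-identical neighbours, each had a summit within 500 bp of their starts, and reads in such copies can be split between them. Of mitochondrial ribosomal protein genes 0 of 11 on X were bound (Wilson interval up to 25.9%), where 36 of 62 were on the arms (58.1%). Of the 11, 10 had a candidate, from 43.0 at mRpL30 to 148 at mRpL16, a candidate that also lies at the start of trr. Replicate 2 alone gave 0 and replicate 3 alone 2. These counts were not tested, since the lists were chosen with earlier results known.

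Transcription and chromatin regulators were bound at 13 of 26 (Wilson interval 32.1 to 67.9%), with candidates at 25, where 27.1% of all X protein-coding genes were bound and 63.8% had a candidate. Their list too was chosen with earlier results known, and the share was not tested. The strongest were ph-p, Top1, a topoisomerase (signal 293 in replicate 2 and 290 in replicate 3), and gce, a juvenile hormone receptor (237 in replicate 2 and 204 in replicate 3). The replicates differed at nej, the CBP acetyltransferase gene, with a signal of 105 in replicate 2 (rank 5448) and 228 in replicate 3 (rank 835). Patterning and signalling genes were bound at 7 of 23 (30.4%), a share near those 27.1%. The strongest were sgg, a kinase of Wnt signalling (331 in replicate 2 and 261 in replicate 3), sd, a partner of Yorkie (174 and 171 in replicates 2 and 3), and Raf (147 and 41.9). The gap gene gt and the pair-rule gene run had no candidate, and N, the Notch receptor gene, only one of 97.7 at its start. A thresholded summit of 258 lay within 500 bp of the bounds of N.

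Neural genes were bound at 5 of 19 (26.3%), near the 27.1% of all X protein-coding genes, led by elav, dnc (350 in replicate 2 and 280 in replicate 3) and shi, the dynamin gene (194 in both replicates). The proneural genes ac, sc, l(1)sc and ase had no candidate. Of 23 loci known from classical visible mutations 6 were bound (26.1%), again near 27.1%, with r, of pyrimidine synthesis (426), ctp, a dynein light chain (375), and cm, an adaptor subunit (342), the strongest. w, the eye colour transporter, had no candidate. Of 3 stress genes, Hsc70-3, the chaperone of the endoplasmic reticulum (219), and Hsp60A, of mitochondria (170), were bound, and Hsp60A in replicate 2 only. Trxr1, thioredoxin reductase, had a candidate of 162, just under the threshold.

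**Figure D5:**
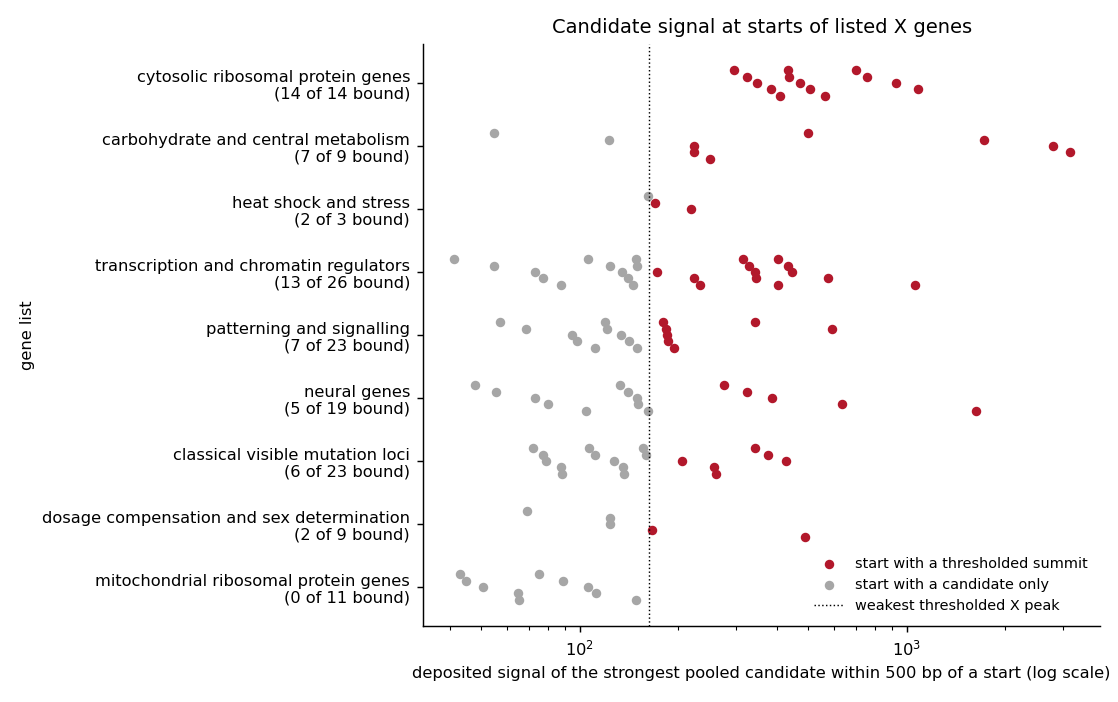
Pooled signal, on a log axis, of the strongest candidate within 500 bp of a start of each listed X gene, red where thresholded and grey where not; genes with no candidate are not drawn, and the dotted line is the weakest thresholded X peak. All 14 cytosolic ribosomal protein genes lie right of the line and none of the 10 mitochondrial ones with a candidate does.

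Noncoding genes followed. Over all annotated genes 652 of 2704 were bound on X (24.1%) and 3936 of 14865 on the arms (26.5%). On X 49 of 374 genes annotated as ncRNA were bound (13.1%, 10.1 to 16.9) and 245 of 2380 on the arms (10.3%). Of transfer RNA genes 1 of 24 was bound on X, tRNA:Phe-GAA-1-2, through the same summit as RpL17, and 70 of 266 on the arms (26.3%). Of microRNA genes 5 of 58 were bound on X (8.62%) and 17 of 200 on the arms (8.50%). The 5 were mir-4962 in Tlk, mir-9377 in Tis11, mir-2496, and the neighbours mir-303 and mir-982, which share a summit. Of snoRNA genes 3 of 31 were bound on X (9.68%) and 32 of 237 on the arms (13.5%).

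Of the 8 motifs, 2 differed between X and arm summits in windows of 100 bp on each side. GATAAG, the GATA hexamer, was in 244 X windows (22.1%, Wilson interval 19.8 to 24.7) and in 26.1% of windows on the arms (odds ratio 0.805, 0.690 to 0.938, Fisher's exact test, adjusted p = 0.0213). In the background candidates it was in 14.2% on X and 14.2% on the arms. In flanks 600 bp away it was in 9.93% on X and 11.3% on the arms, and in windows of all annotated starts in 10.4% on X and 12.1% on the arms. The separate replicates gave 21.8% ± 1.90 on X and 25.8% ± 0.0189 on the arms (SD, n = 2). Away from promoters the hexamer was in 27.8% of X windows and 35.4% of those on the arms, and at promoters in 17.9% on X and 20.4% on the arms.

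CACACACA was in 115 X windows (10.4%, 8.76 to 12.4) and in 7.44% on the arms (odds ratio 1.45, 1.17 to 1.80, Fisher's exact test, adjusted p = 0.00992). Background candidates held it at 10.5% on X and 7.76% on the arms, flanks at 7.89% on X and 4.79% on the arms, and all starts at 5.73% on X and 3.75% on the arms. X summits thus had no more of it than X background candidates. Both motif calls were lost, 2 calls against 0, among the 3512 peaks with the higher signal, with overlapping intervals merged, without replicate 3 and in windows of 50 bp. Among promoter peaks only, Fisher's exact test no longer called GATAAG (odds ratio 0.854, adjusted p = 0.260) but still called CACACACA (1.56, adjusted p = 0.0203).

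The remaining motifs did not pass over all X peaks. The DRE, a core promoter element, was in 4.17% of X windows and 3.16% on the arms (odds ratio 1.33, 0.959 to 1.85, Fisher's exact test, adjusted p = 0.197), while windows of all annotated starts held it at 8.28% on X and 5.02% on the arms. At promoter peaks it was in 6.76% on X and 4.94% on the arms. TATAAA was in 22.5% on X and 25.2% on the arms (adjusted p = 0.153, Fisher's exact test), with flanks at 22.9% on X and 23.0% on the arms. Among promoter peaks only it passed, with 20.4% on X and 25.1% on the arms by Fisher's exact test (adjusted p = 0.0430, odds ratio 0.765). GAGAG was in 30.5% on X and 30.7% on the arms, and GAGAGAGA in 4.44% on X and 3.81% on the arms. ACACTG was in 15.0% on X and 13.8% on the arms, against 8.11% and 7.65% of flanks on X and the arms. GGTCACACT, the core of Motif 1, was in 15 X windows (1.36%) and in 1.87% on the arms, and all 15 were promoter windows. Windows of all annotated starts held TATAAA at 22.3% on X and 27.1% on the arms, GAGAG at 24.4% on X and 24.5% on the arms, and ACACTG at 15.1% on X and 13.5% on the arms. They held GAGAGAGA at 2.55% on X and 1.96% on the arms, and GGTCACACT at 4.02% on X and 3.74% on the arms.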

How the data were processed

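Per the labels' file listings, the authors deposited candidate peaks for each replicate and for the pooled replicates (30000 lines each), and a thresholded list from an irreproducible discovery rate procedure, on build dm6. Both replicates share a control file. The sources used here give no aligner or peak caller. Per deposited line there is an interval, a signal value of unstated scale, a −log10 q value and a summit offset. On X the deposited −log10 q values of thresholded peaks ran from 3.51 to 3.99 and were not used further. No read counts entered, so depth is unknown and intervals reflect only the counting of peaks or genes.

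Annotation came from Ensembl release 115 (17683 genes, 13945 of them protein-coding, with 23133 distinct starts). Transposable elements and mature microRNA arms were left out. Summits no more than 500 bp from a start were promoter peaks, and the rest were assigned in this order: UTR of the 5' side, coding exon, UTR of the 3' side, intron, intergenic. A gene was called bound with a thresholded summit within 500 bp of any start, so 1 peak can count for several genes. Shares on X and on 2L, 2R, 3L and 3R together were compared with two-sided Fisher's exact tests at 0.05, adjusted by Benjamini-Hochberg in families of 3 shares, 6 classes and 8 motifs, with 95% Wilson intervals for shares and 95% log odds intervals for odds ratios. The 7025 highest candidates of each replicate gave a mean ± SD over 2 replicates. Motifs were counted on both strands. The code was checked on simulated data. Python 3.11.15, numpy 2.4.6, pandas 2.3.3, scipy 1.17.1 and matplotlib 3.10.9 were used.

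Named genes are the nearest starts of the 25 strongest X peaks, roX1, roX2, mof, Sxl and up to 3 bound members of each list with the highest signal. Further genes, such as those of small counts, dense genes, gaps and unbound members, were named after their values were seen. The X peaks and the lists were chosen with earlier results of these data known.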

Additional observations from a re-analysis of the deposited data

How the results depend on the processing

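Over the alternatives tried (the 3512 peaks with the higher signal, merged intervals, each replicate left out, promoters within 200 or 1000 bp, all annotated genes, stricter replicate overlap, narrower motif windows and promoter peaks only), the odds ratio of the thresholded share ran from 0.720 to 0.849 and that of bound genes from 0.742 to 0.882, and both stayed past the threshold of Fisher's exact test. The intergenic share stayed short of it. Among the 3512 peaks with the higher signal 3 calls were lost: the replicate share (odds ratio 0.899, Fisher's exact test, adjusted p = 0.410), the promoter share (0.802, 0.0814) and the intron share (1.28, 0.0814); this setting tests fewer peaks. The count of motifs past the threshold fell to 0, against 2, among those peaks, with merged intervals, in windows of 50 bp and without replicate 3. Without either replicate it ran from 0 to 2. Among promoter peaks only the count stayed at 2 with a change of members: GATAAG was lost (0.854, adjusted p = 0.260), TATAAA passed (0.765, adjusted p = 0.0430) and CACACACA held, by the same exact test. The 3' UTR share passed without replicate 3 (1.72, adjusted p = 0.0452), and the 5' UTR share with promoters within 200 bp (1.54, adjusted p = 0.0307), by the same exact test. The ratio of median signals, X over arms, was 0.937, and 0.946 without replicate 2 and without replicate 3, alternatives chosen after seeing the data; the cause was not tested. No reversals occurred among the results that compare a share. No paired analysis was possible because there is only 1 group of libraries. The depth is unknown, so no limit from it can be given.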
